A study of Mus musculus with 12 samples.

Results

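The adenoviral protein E1A and the transcription factor Myc were compared as partners of Hras in transformed mouse embryonic fibroblasts (MEFs), using the open chromatin of untreated cells. The members were the 87478 loci open in Hras.E1A cells, in Hras.Myc cells or in both, of 147985 loci open in any of the 7 ATAC-seq peak lists of the series. ATAC-seq marks open chromatin by the insertion of sequencing adapters with the Tn5 transposase. A locus is a region in which peaks of the 7 lists overlapped, and it was called open in a list that had a peak there. A peak in the Hras.E1A list and none in the Hras.Myc list made a locus E1A-only, the opposite case made it Myc-only, and a peak in both lists made it shared.

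Both lines were labelled as MEFs from E13.5 embryos, immortalized with Ras (Hras) and either E1A or Myc, with no inhibitor. Each line is 1 culture as far as the labels go, with 2 libraries of about 50000 cells that were pooled in 1 peak list. According to the methods of the study, Hras was an activated form and the cells were passaged for a month or longer. The labels and the methods give OG2 MEFs for these samples, although the growth protocol in the labels names a wildtype ICR background. The sex of the embryos is not given. The other 5 lists entered the set of loci and served as a reference. They came from Hras.E1A and Hras.Myc cells treated for 2 days with PD, an inhibitor of the kinase MEK, or with TSA, an inhibitor of histone deacetylases, and from untreated Hdac7SA.Mef2d cells, immortalized with a form of Hdac7, a histone deacetylase, and with Mef2d, a transcription factor.

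Hras is a small GTPase that, when activated, signals through the kinases RAF, MEK and ERK, and AP-1 factors of the FOS and JUN families are well-known end points of that pathway. E1A has no DNA-binding motif of its own. It binds the RB family of proteins, which hold back E2F factors, and the acetyltransferases p300 and CBP. Myc binds DNA as a dimer with MAX at the E-box sequence CACGTG and is known for driving genes of growth and ribosome formation. Either protein can cooperate with activated Ras to transform primary rodent cells.

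The replicates cannot be separated in these lists, so no test between the lines could be made and the differences are descriptions of these 2 lists. Intervals given with shares are 95% intervals by the exact binomial (Clopper-Pearson) method. They count neighbouring loci as if these were independent and hold no error but that of counting. The sequencing depth is not known, so that reads may be present where no peak was called. The authors' score for each peak was used only as a percentile within its list, with 100 at the highest score. Housekeeping promoters were spread over much of its range. Pgk1 stood at percentile 82.3 of the Hras.E1A list and 84.3 of the Hras.Myc list, Rplp0 at 72.8 and 77.5, and a locus 549 bp from the Actb start site at 36.3 and 36. The locus over the Actb start site stood at percentile 14.3 of the Hras.E1A list and 13.0 of the Hras.Myc list. The locus over the start site of Vim, an intermediate filament gene of fibroblasts, had 12.9 and 11.

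Of 4 Y-linked genes, Kdm5d, Eif2s3y, Uty and Ddx3y, 0 had an open locus in either untreated list or in the treated Hras.Myc lists. Open loci were found at 2 of them in Hras.E1A with PD, at 3 with TSA, and at all 4 in Hdac7SA.Mef2d. Over the whole of chromosome Y, 6 loci were open in either untreated list, of which 3 were Myc-only, 0 E1A-only and the others shared. The Uty locus had a percentile of 71.3 with PD and 57.0 with TSA in Hras.E1A. The treated Hras.E1A lists thus stand apart from the untreated list of the same label, and whether they came from the same cells was not tested. This touches each result that reads E1A-only, Myc-only or persistent loci in the treated Hras.E1A lists.

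Sequences behind some of the motif and promoter results are shown first, so that the letters can be set beside the counts given further on. They were read from the plus strand of the RefSeq GRCm38 (mm10) genome and cover a motif, in capitals, with 22 bases on either side. AP-1 factors bind TGANTCA, which was found in the central 200 bp of 29.2% of all 147985 loci, on either strand. Among the highest-scoring distal Myc-only loci with this motif were those nearest to Lrfn5, Lcp2 and Vgll4.
Lrfn5 locus, chr12:60967578-60967628: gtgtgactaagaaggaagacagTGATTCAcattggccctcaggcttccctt
Lcp2 locus, chr11:34036538-34036588: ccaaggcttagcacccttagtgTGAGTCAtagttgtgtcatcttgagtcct
Vgll4 locus, chr6:114944690-114944740: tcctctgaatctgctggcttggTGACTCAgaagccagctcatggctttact
TEAD factors, the DNA-binding partners of YAP and TAZ, bind ACATTCC or GCATTCC, found in 11.9% of all loci. Among the highest-scoring distal E1A-only loci with it were those nearest to Zfp148, Anxa1 and Rfc3, the last with the motif on the minus strand.
Zfp148 locus, chr16:33441193-33441243: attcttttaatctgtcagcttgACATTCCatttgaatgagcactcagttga
Anxa1 locus, chr19:19783680-19783730: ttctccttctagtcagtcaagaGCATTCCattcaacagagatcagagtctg
Rfc3 locus, chr5:151705375-151705425: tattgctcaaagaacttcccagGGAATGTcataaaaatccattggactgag

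A further pair of sets came from loci with a peak in all 3 Hras.E1A lists and in 0 of the 3 Hras.Myc lists. REST is a repressor that holds neuronal genes silent in other cells, and its motif was found in 0.0933% of all loci. Of the 1896 loci with a peak in all 3 Hras.E1A lists and no Hras.Myc list, 6 held it. The motif is shown at the start site of Drd3, a dopamine receptor, and near Pdyn, the precursor of dynorphin peptides, and Shank2, a scaffold of synapses. These are picked examples, and the loci nearest to Crtac1 and Wscd2, which also held the motif, are not shown.
Drd3 locus, chr16:43753905-43753963: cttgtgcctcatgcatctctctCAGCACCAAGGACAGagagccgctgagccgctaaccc
Pdyn locus, chr2:129715851-129715909: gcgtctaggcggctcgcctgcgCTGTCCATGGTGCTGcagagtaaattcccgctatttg
Shank2 locus, chr7:144294437-144294495: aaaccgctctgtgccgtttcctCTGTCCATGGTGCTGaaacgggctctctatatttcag
The IRF motif, bound by the interferon regulatory factors, was found in 2.39% of all loci and is shown at promoters of the interferon-induced genes Ifit3, Ifit3b, Isg15 and Oas1g.
Ifit3 promoter, chr19:34583351-34583404: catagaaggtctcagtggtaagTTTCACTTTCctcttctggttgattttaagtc
Ifit3b promoter, chr19:34607747-34607800: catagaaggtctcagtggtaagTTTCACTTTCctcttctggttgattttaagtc
Isg15 promoter, chr4:156200853-156200906: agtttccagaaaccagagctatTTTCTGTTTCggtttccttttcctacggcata
Oas1g promoter, chr5:120887594-120887647: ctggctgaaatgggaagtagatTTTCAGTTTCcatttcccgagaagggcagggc
The Ifit3 and Ifit3b windows were identical, so reads could be split between these near-identical copies and their peaks are uncertain as separate values. No IRF motif was found in the promoter loci of Ifi27l2a, Ifi44 and Gbp6. Against shared loci of the same GC content, IRF motifs were found 1.0 times as often in E1A-only loci (0.897 to 1.12). In loci with a peak in all 3 Hras.E1A lists and no Hras.Myc list, they were found 1.06 times as often (0.789 to 1.41). The shown sites are thus examples and not an excess of the motif.

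The Hras.E1A list held 81201 peaks covering 32.5 Mb and the Hras.Myc list 67738 peaks covering 27.1 Mb. Shared loci numbered 60269, E1A-only loci 20300 and Myc-only loci 6909. E1A-only loci made up 23.2% (95% interval 22.9 to 23.5) of the loci open in either list and Myc-only loci 7.9% (7.72 to 8.08), a ratio of 2.94. With the Hras.E1A list cut by score to the length of the Hras.Myc list, E1A-only loci numbered 15458 and Myc-only loci 15282. All 6909 loci that were Myc-only at full length stayed so, and another 8373 became Myc-only because their Hras.E1A peak was removed. Lists with the same number of peaks hold nearly equal numbers of 1-line loci by construction, so the cut says nothing for or against an excess in either line. It serves to show which loci and genes depend on list length, and it also removes low-scoring peaks at promoters.

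**Figure D1:**
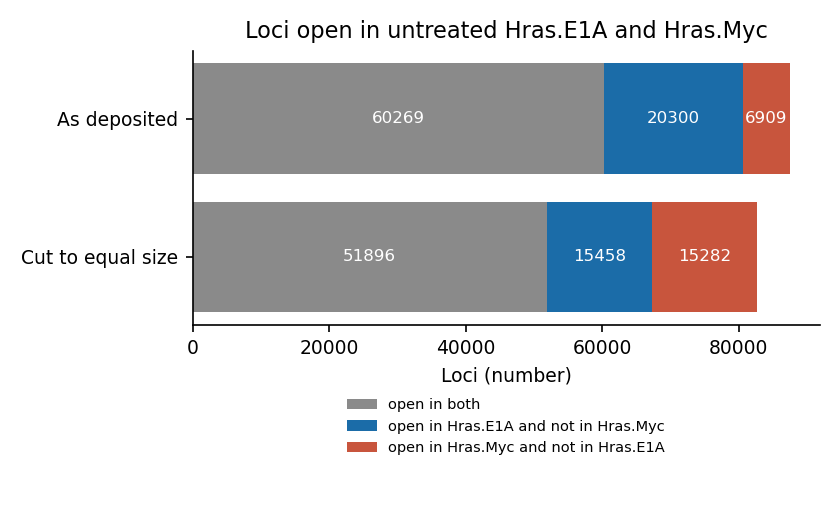
Number of shared, E1A-only and Myc-only loci, as deposited (upper bar) and with the Hras.E1A list cut by score to equal size (lower bar). The 1-line classes hold 20300 and 6909 loci as deposited and 15458 and 15282 at equal size.

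Most 1-line loci scored low in the list that held them. The median percentile was 39.0 (38.3 to 39.6) for E1A-only loci in Hras.E1A, against 54.4 for shared loci. It was 26.9 (25.7 to 28.0) for Myc-only loci in Hras.Myc, against 53 for shared loci. At promoters, which are loci no more than 1000 bp from where transcription of a protein-coding gene starts (the TSS), the medians were 20.7 for E1A-only and 6.34 for Myc-only loci. In the lowest 10% of scores, 40.0% of Hras.E1A loci were absent from the Hras.Myc list, and in the highest 10% 13.8% (13.0 to 14.6) were. For Hras.Myc the shares fell from 27.9% to 3.19% (2.78 to 3.64). The highest 10% left 1119 E1A-only and 216 Myc-only loci that were not near the lower limit of their list.

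E1A-only loci lay farther from start sites than the other classes. Their median distance to the nearest TSS was 37436 bp, against 26240 bp for Myc-only and 16344 bp for shared loci. Among loci open in either list, the E1A-only share rose with every step in distance, from 4.42% (4.05 to 4.81) over a TSS to 21.0% at 1001 to 10000 bp and 38.0% (37.2 to 38.8) beyond 100000 bp. The Myc-only share rose from 1.15% (0.961 to 1.36) over a TSS to 9.93% at 1001 to 10000 bp and was 8.19% (7.75 to 8.66) beyond 100000 bp. The E1A-only share also fell as loci became denser, from 45.2% (43.3 to 47.2) in 1 Mb windows of 1 to 10 loci to 16.0% (15.4 to 16.6) in windows of 81 or more. The Myc-only share was 6.39% and 7.86% in these windows. By annotation, 52.0% (50.8 to 53.2) of Myc-only loci lay in introns and 42.7% between genes, whereas 46.1% (45.4 to 46.8) of E1A-only loci lay in introns and 49.1% between genes. Over chromosomes 1 to 19 and X, the E1A-only share ranged from 17.9% on chromosome 19 to 26.1% on chromosome 1, and the Myc-only share from 6.26% on X to 8.9% on chromosome 13.

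**Figure D2:**
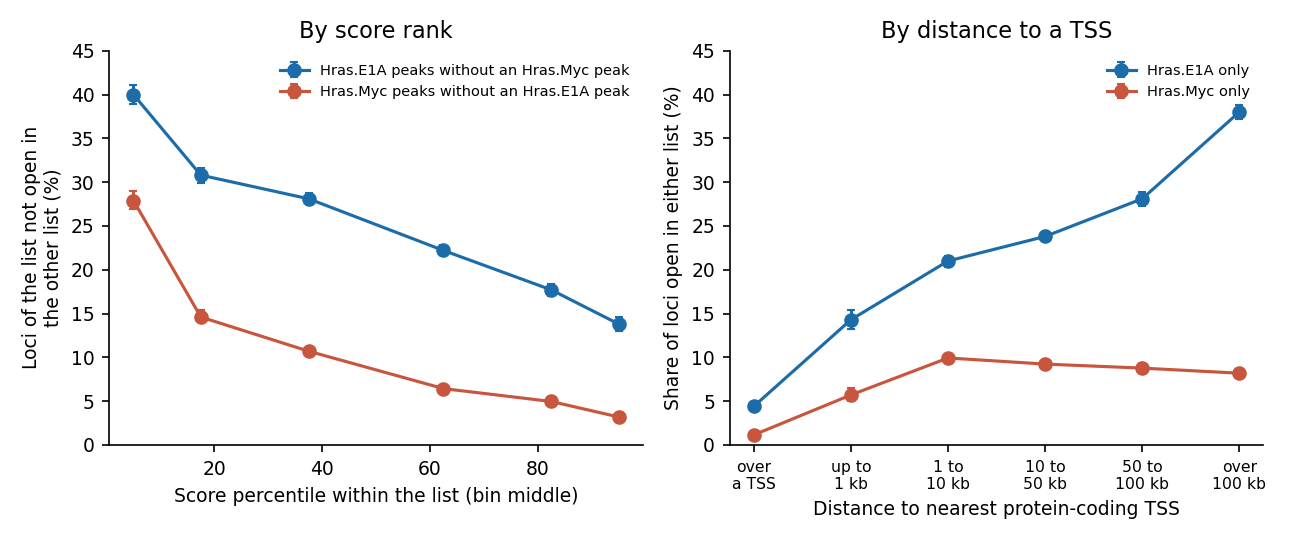
Left, share of the loci of each untreated list that were not open in the other list, by score percentile within the list. Right, share of loci open in either list that were E1A-only or Myc-only, by distance to the nearest TSS. Points show shares in percent with 95% binomial intervals. The E1A-only share falls from 40.0% to 13.8% with score and rises from 4.42% to 38.0% with distance.

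Promoters were mostly shared. Of 15540 promoter loci open in either list, 1094 were E1A-only (7.04%) and 367 Myc-only (2.36%). At shared promoters the scores of both lists ran together, with a Spearman rho of 0.905 across 14079 loci, whereas rho was 0.763 across 46190 shared distal loci. These are correlations across loci within 1 pair of lists that share peak positions, and loci are not replicates. The Hras promoter had a percentile of 68.3 in Hras.E1A and 71.7 in Hras.Myc. Epcam, an epithelial adhesion gene, had 53.2 and 66.8 at its shared promoter locus, and Isl1, a developmental transcription factor, had 65.9 and 87.7. Around Myc itself 3 loci were shared. A further locus, 277 bp from a TSS and with its middle in the coding sequence of Myc, was Myc-only. It stood at percentile 4.51 in Hras.Myc and 3.56 in Hras.Myc with PD, and was open in none of the Hras.E1A lists. Hras.Myc cells carry an introduced Myc gene, and whether reads at this locus came from it was not tested. Cdkn2a, which encodes the tumour suppressors p16 and p19ARF, had 4 shared loci and 1 E1A-only locus, at percentile 47.8 and 8012 bp from a TSS.

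Some shared promoters changed places in the score order. The percentile was higher in Hras.E1A by 25 points or more at 306 shared promoters (2.17%) and higher in Hras.Myc at 280 (1.99%). Haus5, a subunit of the spindle complex augmin, had 89.0 in Hras.E1A and 6.74 in Hras.Myc. It kept that order with PD (91.6 and 72.8) and with TSA (58.3 and 12.2). Smpd3, a sphingomyelinase, had 91.8 and 30.0, but the order turned with TSA (17.4 and 37.2), and with PD it had a peak in Hras.Myc alone, at 50.9. In the other direction, Phldb1, a cortical adaptor protein, had 13.9 in Hras.E1A and 86.7 in Hras.Myc, but 85.1 and 78.5 with TSA. Tbx15, a transcription factor of limb and skin mesenchyme, had 22.7 and 82.5, and again a lower value in Hras.E1A with PD (62.1 and 94.4). The spread of such ranks between replicates is unknown.

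Within 10000 bp of a TSS, 13.8% of 30157 loci were E1A-only and 6.03% Myc-only. With lists of equal size these shares were 8.5% and 21.0%, so the direction of the difference near genes turned, with E1A-only minus Myc-only loci going from 2339 to -3562. The leading genes and the gene lists are given with both lengths for that reason. Of 15123 genes with a locus assigned to them, 3028 had more E1A-only than Myc-only loci and 1301 had more Myc-only loci. A net excess of 3 or more was found at 88 genes for E1A and at 5 for Myc. At equal size the counts turned as well, with 1578 genes for E1A and 4076 for Myc, and 19 and 208 with a net excess of 3 or more.

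By net number of E1A-only loci, the leading genes were of mixed kinds. Asic2, an acid-sensing sodium channel (chromosome 11, 80880169 to 81968457), and Hmx1, a homeobox factor of the eye and sensory ganglia (chromosome 5, 35389108 to 35399730), each had 5 E1A-only loci and no shared or Myc-only locus. At equal size 3 and 2 of these loci stayed E1A-only. The Hmx1 locus 8954 bp from the TSS had a percentile of 75.9 in Hras.E1A, 61.6 with PD and 43.6 with TSA, and it was open in Hras.Myc only with PD, at 46.1. The promoter locus of Hmx1, 305 bp from the TSS, was open in all 3 Hras.E1A lists at 28.1, 60.8 and 26.4 and in no other list. Pik3c2g, a phosphoinositide kinase, had 4 E1A-only loci and 0 of the other classes at both lengths, and 11 more E1A-only than Myc-only loci within 50000 bp. Limch1, an actin-binding activator of myosin, Kcnj12, a potassium channel, and Ipcef1 had 4 each, of which 3, 2 and 3 stayed at equal size. Zbtb20, a transcriptional repressor, had 5 E1A-only and 3 shared loci. The excess was lost at equal size for Gramd1b (2 and 2 loci), and it turned for Plec (2 and 4), the cytoskeletal linker plectin, and Pou3f3 (1 and 2), a neural POU factor.

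The leading genes in the Myc direction had fewer 1-line loci. Hrh1, a histamine receptor (chromosome 6, 114397936 to 114483296), Ank1, the red cell ankyrin, and Asic4 had 3 Myc-only loci each, and 3, 6 and 3 shared loci. Asic4 had a promoter locus open in all 3 Hras.Myc lists and in none of the Hras.E1A lists, at 1.98 untreated, 12 with PD and 26.9 with TSA. Pdgfrb, the receptor for platelet-derived growth factor B and a marker of mesenchymal cells, had 3 Myc-only loci, 1264, 2027 and 9197 bp from its TSS, at percentiles 26.2, 9.55 and 22.8. The Pdgfrb locus over the TSS was shared, at 43.7 in Hras.E1A and 16.7 in Hras.Myc. Within 50000 bp, E1A-only minus Myc-only loci were 0 for Pdgfrb, and -5, -3 and -3 for Hrh1, Ank1 and Asic4. Dkk3, a secreted glycoprotein of the Dickkopf family, had 2 Myc-only loci at its promoter, at 58.6 and 2.56, and no shared locus. The higher-ranked of these was open with PD and with TSA in both lines. Cwc22, a splicing factor, had 2 Myc-only loci, at 94.4 and 17.2, and the former was also open in Hras.E1A with TSA, at 69.4.

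The highest-scoring 1-line loci were examined next, since they lay far from the lower limit of a list. At promoters, the E1A-only locus of Slc9b2, a sodium-proton antiporter, had 91.9 in Hras.E1A, 72.0 with PD and 84.4 with TSA, and no peak in any Hras.Myc list. That of Astn1, a neuronal adhesion protein, had 91.4, 45.4 and 33.9 and was open in no other line. The locus over a TSS of Dmd, the dystrophin gene, had 93.9 in Hras.E1A and 100 in Hdac7SA.Mef2d. It was not open in either treated Hras.E1A list, and it was open in Hras.Myc with PD, at 99.7. Among the 10 top distal E1A-only loci, the one nearest to Ear1 was open in all 3 Hras.E1A lists and no Hras.Myc list, at 99.8, 96.6 and 98.2. That nearest to Epyc, a small proteoglycan of cartilage, had 100 in Hras.E1A and 98.5 with PD, and it was open in Hras.Myc with PD at 69.0. Of these 10 loci, those nearest to Ndn, Sdk1, Zfp148, Ntng1, Htr1f, Pdlim3 and Dlg2 were open in Hras.Myc with TSA, at 35.5 to 60.6. Those nearest to Ear1, Epyc and Chrm3 were not.

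The top Myc-only loci were likewise often open in Hras.E1A cells treated with TSA. The locus over a TSS of Dtnb, a dystrobrevin, had 98.8 in Hras.Myc and 31.8 in Hras.E1A with TSA. That of Atp13a4, a transporter ATPase, had 97.9 in Hras.Myc, 92.4 in Hras.Myc with TSA and 93.9 in Hras.E1A with TSA. Tlr6, a toll-like receptor, had 97.3 in Hras.Myc, 88.8 with PD and 75 with TSA, and 41.3 in Hras.E1A with TSA. Of the Lrfn5, Lcp2 and Vgll4 loci whose AP-1 motifs are shown above, each had more than 99 in Hras.Myc and was open in both lines with TSA and in neither with PD. The locus near Slc24a3, a sodium and calcium exchanger, differed from these, with 99.4 in Hras.Myc, 99.1 with PD and 75.3 with TSA and no peak in any Hras.E1A list or in Hdac7SA.Mef2d.

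The classes had different states in the other 5 lists. E1A-only loci were open in Hdac7SA.Mef2d at 72.8% (72.2 to 73.4) and Myc-only loci at 39.6% (38.5 to 40.8), while shared loci were open there at 84.0%. In treated cells of their own line, E1A-only loci were open at 42.1% with PD and 55.3% with TSA. In treated Hras.Myc cells they were open at 25.4% with PD and 29.7% with TSA. Myc-only loci were open in treated Hras.Myc cells at 22.9% with PD and 61.1% with TSA, and in treated Hras.E1A cells at 15.3% with PD and 56.7% (55.5 to 57.9) with TSA. Myc-only loci were thus open with TSA in both lines at close shares. With all 7 lists cut to the shortest, the share open in Hdac7SA.Mef2d was 44.9% for E1A-only and 12.1% for Myc-only loci, and the Myc-only share with TSA was 58.9% in Hras.Myc and 44.7% in Hras.E1A. With PD it was then 44.7% and 39.9%.

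**Figure D3:**
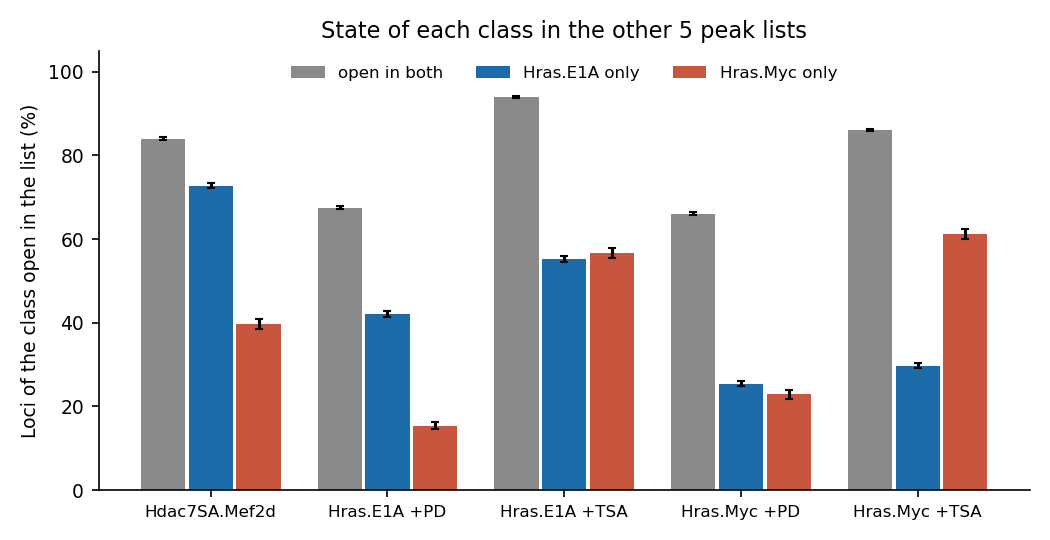
Share of shared, E1A-only and Myc-only loci, in percent, that were open in each of the other 5 peak lists, with 95% binomial intervals. Hdac7SA.Mef2d held 72.8% of E1A-only and 39.6% of Myc-only loci, and Hras.E1A with TSA held 56.7% of Myc-only loci.

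The difference between the lines was carried into treated cells by a minority of loci. Of 20300 E1A-only loci, 7151 (35.2%) were open only in Hras.E1A when both lines had been treated with TSA, 1960 (9.66%) were open only in Hras.Myc, 4073 (20.1%) were open in both and 7116 (35.1%) in neither. With PD, 4673 (23.0%) kept the direction, 1280 (6.31%) turned and 10469 (51.6%) were open in neither. Of 6909 Myc-only loci, 1535 (22.2%) kept the direction with TSA, 1231 (17.8%) turned and 2687 (38.9%) were open in both. With PD, 954 (13.8%) kept it, 434 (6.28%) turned and 4896 (70.9%) were open in neither. In each of these comparisons more loci kept the direction than turned, with the smallest difference for Myc-only loci with TSA. The TSA lists came from 1 library each and those with PD from 2.

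Loci with a peak in all 3 lists of one line and none of the other were taken as persistent. There were 1896 for Hras.E1A (2.17% of loci open in either untreated list) and 217 for Hras.Myc (0.248%). With all 7 lists cut to the shortest the counts were 1154 and 474, so the direction held and the ratio was smaller. Of the persistent Hras.E1A loci 75.4% (73.4 to 77.3) were also open in Hdac7SA.Mef2d, and of the persistent Hras.Myc loci 46.1% (39.3 to 53). Promoters made up 236 (12.4%, 11 to 14.0) of the Hras.E1A set, against 1094 of the 20300 E1A-only loci (5.39%). They made up 16 (7.37%, 4.27 to 11.7) of the Hras.Myc set, against 5.31% of Myc-only loci. Of all promoter loci open in either untreated list, the persistent ones were 1.52% for Hras.E1A and 0.103% for Hras.Myc. Within 10000 bp of a TSS there were 519 (1.72%) and 69 (0.229%).

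The genes named from the persistent promoters were chosen after their values had been seen. Interferon-induced genes were among those of Hras.E1A. Ifit3, whose product limits translation of viral RNA, had 54.9 untreated, 42.6 with PD and 47.7 with TSA, and its neighbour Ifit3b had 69.1, 63.0 and 50.8. Oas1g, a sensor of double-stranded RNA, had 47.3, 66.0 and 75.2. Trim30a had 48.5, 52.1 and 49.0. The locus over the TSS of Ifi44 had 39.6, 59.3 and 48.6, and Ifi27l2a had 34.6, 41.8 and 70.3. Isg15, a ubiquitin-like protein, had 1.12, 7.13 and 4.04, so its peaks were near the lower limit in each list. Ifit3, Isg15, Oas1g and Trim30a had no peak in Hdac7SA.Mef2d either. Ifit3b, the Ifi44 locus over the TSS and Ifi27l2a were open there, at 42.7, 30.7 and 37.5. The absence at Ifit3 is uncertain, since its window is identical to that of Ifit3b.

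Genes of neurons and of development were also present among the persistent Hras.E1A promoters. Drd3 had 68.4 untreated, 92.1 with PD and 23.1 with TSA, and Elavl4, an RNA-binding protein of neurons, had 53.2, 82.6 and 37.0. Chrm2, a muscarinic receptor, had 33.4, 21.2 and 35.0. The developmental factors named here scored low in untreated cells. Tfap2a, a factor of neural crest, had 2.53, 2.97 and 2.79, and Tbx5, a factor of heart and forelimb, had 9.51, 23.3 and 40.6. Dnmt3a, a de novo DNA methyltransferase, had 79.2, 51.5 and 63.8. The 16 persistent promoters of Hras.Myc included Egfl7, a secreted factor of endothelium, at 2.45, 2.41 and 38.1, Fes, a tyrosine kinase, at 8.48, 1.31 and 19.5, and Hoxb6 at 5.53, 0.801 and 13.7. These 3 scored low in the untreated list, but others of the 16 ranked higher. Fbxo40 had 55.4, 70.1 and 33.1, Ergic1 51.0, 29.3 and 6.93, and Ccdc8 41.4, 84.7 and 18.8.

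Gene lists were described by counts beside those for all genes, of whose 30157 loci 13.8% were E1A-only and 6.03% Myc-only. Within 10000 bp, markers of fibroblasts had 2 E1A-only (5.88%) and 9 Myc-only of 34 loci, or 26.5% (12.9 to 44.4) Myc-only. At equal size the shares were 3.03% and 42.4%. Within 50000 bp the order turned, with 17.6% E1A-only and 14.9% Myc-only, beside 18.9% and 7.66% for all genes. Besides those of Pdgfrb, the Myc-only loci lay at Twist1 (2 loci), a factor of mesenchyme, at Prrx1, a factor of limb mesenchyme, at Thy1, a surface glycoprotein, and at the matrix genes Dcn and Sparc. Most scored low in Hras.Myc, with 2.22 at Prrx1, 1.61 at Thy1, 2.33 at Sparc and 34.1 at Dcn. The Prrx1 and Dcn loci were open in Hras.E1A with PD (4.93 and 87.4) and with TSA (11 and 15.5). The E1A-only loci were at the collagen genes Col3a1 (88.0) and Col1a2 (3.63). By promoter, 7 of 13 fibroblast markers were open in Hras.E1A and 10 in Hras.Myc. Col1a1, Col3a1, Pdgfra, Pdgfrb, Sparc, Twist1 and Vim were open in both, and Dcn, Prrx1 and Thy1 in Hras.Myc alone.

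Promoters of other cell types were open too, which a peak at a promoter does not tie to expression. All 8 epithelial markers, with Cdh1, Epcam and Krt8 among them, had an open promoter in both lines, and 4 of their 17 loci were E1A-only and 0 Myc-only. These E1A-only loci, at Cldn4, Cldn7 and Krt8, scored low in Hras.E1A, from 0.296 to 10.7. At equal size the direction turned, with 0 E1A-only and 3 Myc-only (23.1%) of 13 loci. Skeletal muscle markers had 3 of 5 promoters open in Hras.E1A, those of Myod1, Des and Actc1, and 0 in Hras.Myc. At equal size the Hras.E1A peaks at the promoters of Myod1 and Des, the latter at 11.1, were removed, and that of Actc1 stayed. By locus within 10000 bp, the list held 4 E1A-only and 1 Myc-only of 10 loci, and 2 and 1 of 8 at equal size. The Myc-only locus lay at Myog, 1132 bp from the TSS, at 12.2 in Hras.Myc. The Myod1 locus had 16.2 in Hras.E1A, 21.5 with PD and 18.5 with TSA, and the locus over the TSS of Actc1 had 43.3 in untreated cells and no peak in treated Hras cells. A further Actc1 locus, 6804 bp from the TSS, had 84.5 in Hras.E1A and 85.8 with TSA. Endothelial markers had 3 of 6 promoters open in Hras.E1A and 2 in Hras.Myc, neural markers 4 and 3 of 6, and blood markers 2 and 2 of 6. Cells of another type in a culture and open promoters in all cells cannot be told apart in these lists.

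Lists with an E1A-only share above that of all genes included interferon response genes, with 16 of 85 loci E1A-only (18.8%, 11.2 to 28.8) and 5 Myc-only (5.88%). Irf7, the factor that amplifies the interferon response, had its locus at 1.09 in Hras.E1A. Collagen genes had 13 of 66 loci E1A-only (19.7%, 10.9 to 31.3) and 2 Myc-only, among them persistent loci over the TSS of Col4a3 (50.8, 35.7 and 69.9) and Col4a6 (11.2, 33.6 and 10.3), chains of basement membrane collagen. Transcription factors of fibroblast identity had 33 of 164 loci E1A-only (20.1%, 14.3 to 27.1) and 17 Myc-only (10.4%, 6.16 to 16.1), so both shares were above those of all genes. The Hox clusters had 18 of 92 loci E1A-only (19.6%, 12 to 29.1) and 11 Myc-only (12%, 6.12 to 20.4). Of these, the interval of the E1A-only share excluded 13.8% for the fibroblast factors alone. At equal size the E1A-only shares were 9.21% for interferon, 8.62% for collagen, 11.5% for fibroblast factor and 8.64% for Hox loci, beside 8.5% for all genes. The Myc-only shares were then 22.4%, 29.3%, 33.1% and 44.4% in the same order, beside 21.0% for all genes.

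Lists close to the known partners of E1A and Myc were read against the same 13.8% and 6.03%. E2F target and replication genes had 2 E1A-only and 2 Myc-only of 55 loci (3.64% each, 0.443 to 12.5), and 11.1% of each class without promoters. The E1A-only loci were at Cdk1, the mitotic kinase, and Rrm2, a subunit of ribonucleotide reductase, and the Cdk1 locus, 9639 bp from the TSS, was persistent at 65.4, 33.0 and 41.5. Genes of the MYC and MAX network had 2 E1A-only loci, at Mycl and Mxd3, and 1 Myc-only locus, at Myc, of 27. The locus at Myc is the one in its coding sequence, where reads of the introduced Myc gene were not told apart. Growth and nucleolar genes known as MYC targets had 3 E1A-only and 4 Myc-only of 42 loci. Genes for E1A-binding and acetylation cofactors had 3 and 2 of 48, and genes of the RB and p53 checkpoints 8 (11%, 4.85 to 20.5) and 5 of 73. The E1A-only intervals of the MYC and MAX, cofactor and checkpoint lists and of the MYC targets held 13.8%. ERK target and feedback genes had 6 E1A-only (5.83%, 2.17 to 12.2) and 7 Myc-only of 103 loci, and the interval of the E1A-only share lay under the 13.8% of all genes. Wnt pathway genes had 8 (6.84%, 3.0 to 13.0) and 9 of 117. TGF-beta and SMAD genes had 13 of 85 E1A-only and 3 Myc-only loci, with 2 of the former at Tgfb2, a TGF-beta ligand. At equal size, beside 8.5% and 21.0% for all genes, the E1A-only and Myc-only shares were 1.85% and 11.1% for E2F targets, 0% and 32% for the MYC and MAX network and 7.14% and 21.4% for MYC targets. They were 2.17% and 15.2% for cofactor, 1.52% and 28.8% for checkpoint, 1.02% and 38.8% for ERK, 3.54% and 27.4% for Wnt and 8.86% and 29.1% for TGF-beta loci.

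Motifs in the central 200 bp differed between the classes. AP-1 motifs were found in 39.8% (38.7 to 41) of Myc-only, 30.3% (29.7 to 31.0) of E1A-only and 33.2% of shared loci. Set against shared loci of the same GC content, the ratio was 0.703 (0.686 to 0.72) for E1A-only and 0.988 (0.958 to 1.02) for Myc-only loci. Set directly against Myc-only loci of the same GC content, E1A-only loci held AP-1 motifs 0.729 times as often (0.7 to 0.758). GC content of the loci differed, with medians of 46.5% in E1A-only, 49.5% in Myc-only and 51.5% in shared loci, and without matching the AP-1 ratios to shared loci were 0.912 and 1.2. Of Myc-only loci 35.0% had a single AP-1 motif, against 26.5% of E1A-only loci.

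Several other motifs were more frequent in E1A-only loci. TEAD motifs were found in 12% of E1A-only and 8.53% of Myc-only loci, a direct ratio of 1.42 (1.28 to 1.57). The ratio for RUNX (TGTGGTT), bound by factors of bone and blood, was 1.41 (1.24 to 1.6), and that for FOX (TGTTTAC), bound by forkhead factors, was 1.65 (1.36 to 2.02). CTCF, which shapes chromatin loops, had its motif in 2.38% of E1A-only and 0.811% of Myc-only loci, both under shared loci at 5.6%. That difference between the classes was not seen at equal size, where the direct ratio was 1.07 (0.907 to 1.26). REST motifs were found in 38 E1A-only loci and 2 Myc-only loci, a ratio of 8.83 with a wide interval (2.11 to 36.9). In Myc-only loci GATA motifs (AGATAAG) were the more frequent, with 3.24% against 2.3% and a direct ratio of 0.639 (0.533 to 0.766). The E-box CACGTG was found in 2.8% of E1A-only and 3.42% of Myc-only loci, with a ratio of 0.884 (0.744 to 1.05), and the E2F motif in 0.133% and 0.145%, with a ratio of 1.19 (0.566 to 2.52). Both of these intervals held 1. At equal size the direct ratios were 0.847 (0.818 to 0.878) for AP-1, 1.54 for TEAD, 1.43 for RUNX, 1.48 for FOX, 5.07 (2.53 to 10.1) for REST and 0.725 for GATA. The E2F ratio was then 0.668 (0.364 to 1.22) and that of the E-box 0.872 (0.754 to 1.01).

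**Figure D4:**
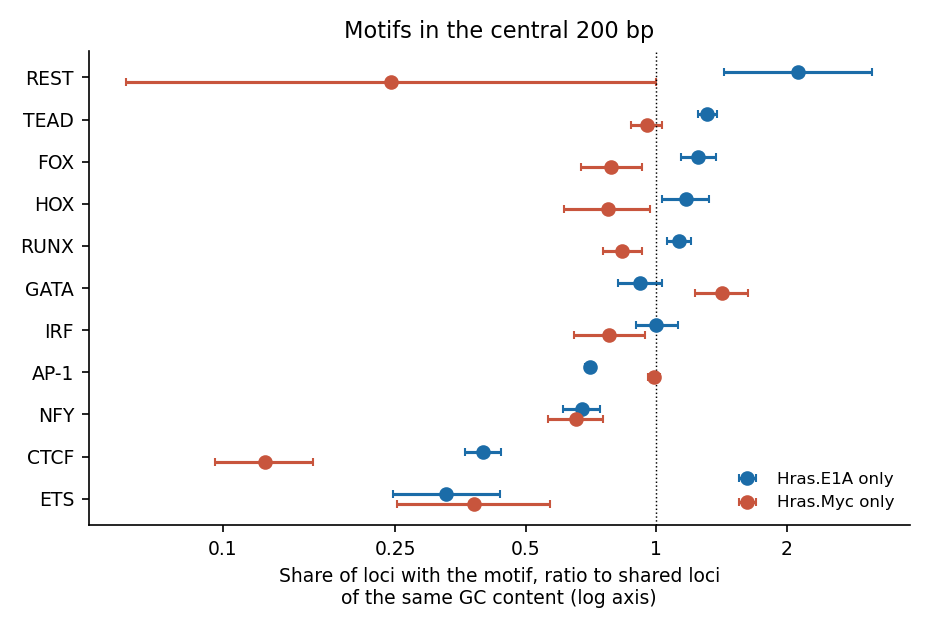
Share of E1A-only and Myc-only loci with a motif in the central 200 bp, as the ratio to shared loci of the same GC content drawn on a log axis. Bars are 95% intervals of the ratio. AP-1 is at 0.703 for E1A-only and 0.988 for Myc-only loci, and TEAD at 1.31 and 0.951.

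TEAD and AP-1 shares of distal loci were also split by their state in Hdac7SA.Mef2d, without matching for GC content. Among distal loci open there, TEAD motifs were found in 14.3% (13.8 to 14.9) of E1A-only and 12.5% (11.3 to 13.9) of Myc-only loci. Among those closed there, the shares were 6.85% (6.17 to 7.57) and 6.21% (5.48 to 7.01). The E1A-only share of TEAD motifs was thus the higher in either state, with overlapping intervals. AP-1 motifs kept the difference in either state, with 32.8% of E1A-only and 41.7% of Myc-only loci open in Hdac7SA.Mef2d and 28.1% and 40.5% of those closed. Among persistent loci AP-1 motifs were less frequent than in shared loci for both lines, with ratios of 0.392 (0.352 to 0.436) for Hras.E1A and 0.645 (0.51 to 0.815) for Hras.Myc. The CTCF ratio was 1.03 (0.856 to 1.24) in the persistent Hras.E1A loci. Persistent loci had a peak with PD by definition, whereas 24.4% of shared loci were open in neither line with PD. The persistent and shared sets were thus selected differently, and how far this sets the AP-1 and CTCF ratios was not tested.

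Loci of the same class also lay side by side. In the order of loci open in either list, there were 279 runs of 5 or more consecutive E1A-only loci, which held 1891 loci, and 4 such runs of Myc-only loci, which held 25. With lists of equal size the Myc-only runs numbered 28. Runs form more readily in a class with 23.2% of the loci, as E1A-only, than in a class with 7.9%, as Myc-only. No count for loci in random order was made, so the numbers of runs do not compare clustering between the classes. Runs of 10 or more numbered 36 for E1A-only and 0 for Myc-only loci. The longest run held 24 E1A-only loci over 984.7 kb of chromosome 2 (169061549 to 170046290), around Tshz2, a zinc finger gene of development, and Zfp217. Of 56 loci of the 7 lists there, 24 were open in Hras.E1A, 11 with PD and 22 with TSA, and 44 in Hdac7SA.Mef2d. In Hras.Myc 0 were open untreated, 1 with PD and 14 with TSA. A promoter locus of Tshz2, 171 bp from the TSS, was persistent at 58.6, 41.9 and 50.4. Another, over a TSS, was not persistent. It had 9.88 in untreated Hras.E1A, where its peak was removed at equal size, and was open in Hras.Myc with TSA at 30.0. Other runs lay on chromosome 4 near Megf9 (19 loci), on chromosome 7 over St8sia2 and Slco3a1 (17 loci), on chromosome 17 around Alk (16 loci), a receptor tyrosine kinase of neurons, and between Kcnj2 and Sox9 on chromosome 11 (14 loci over 728.4 kb). The promoter of Sox9, a factor of cartilage, was shared, at 19.6 and 20.3.

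**Figure D5:**
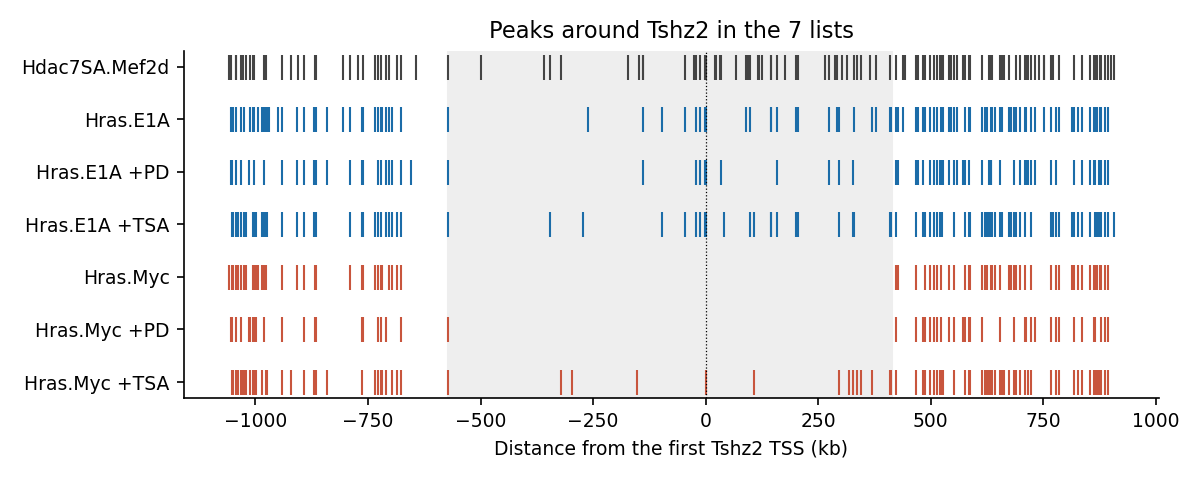
Peaks of the 7 lists around the first TSS of Tshz2, in kb from that site, with 1 line of marks per list. Hras.E1A has 24 loci in the run from -571.5 to 413.3 kb, Hras.Myc has 0, and Hdac7SA.Mef2d has 44.

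The longest Myc-only runs held 7 loci. That at Zfp385b and Cwc22 spanned 68.9 kb of chromosome 2 (77869886 to 77938757). Of its 7 loci, 7 were open in Hras.Myc, 5 with PD and 6 with TSA, against 0, 0 and 2 in Hras.E1A and 0 in Hdac7SA.Mef2d. The other lay on chromosome 14 (68192493 to 68338877) between Nefm, a neurofilament gene, and Adam7, where all 7 loci were open in Hras.Myc with TSA and 1 with PD, and 4 in Hras.E1A with TSA. By 1 Mb windows with 20 or more loci, E1A-only loci made up more than 50% in 34 of 1611 windows and Myc-only loci in 1, on chromosome 12 at 107 Mb, where 14 of 23 loci were Myc-only. The unequal size of the classes bears on these windows as it does on the runs.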

How the data were processed

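The 12 ATAC-seq samples fell into 7 groups by their labels, and untreated Hras.E1A and Hras.Myc had 2 libraries each. Reads were aligned to mm10 with Bowtie2 2.4.5 and peaks called with MACS2 2.2.7.1, as named in the processing notes of the submitters. The study's methods add that weak peaks were recovered by redefine_peaks from peaks found in other samples, so the lists are not independent. The authors deposited 1 list per group, with 400 bp peaks and a score whose scale is not stated. Deposited peaks carried no read counts, so the depth is unknown. Wildtype MEFs were not analysed here.

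Peaks overlapping by 1 bp or more in any of the 7 lists were merged into loci. The score gave percentiles within a list and the order for lists of equal size. Each locus was given the protein-coding TSS closest to it in the GENCODE M21 basic annotation of GRCm38, within 10000 bp for gene lists. Consensus sequences of 33 motifs were searched on both strands, and ratios were weighted to the same distribution over 10 GC bins. The analysis used Python 3.11.15, numpy 2.4.6, pandas 2.3.3 and scipy 1.17.1, and was tested on simulated data. Coordinates count from 1.

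The members, the 26 gene lists and the motifs were chosen with earlier results of these data known. Genes were named by a rule: the 10 genes per direction with the largest net number of 1-line loci within 10000 bp, the 10 promoter and 10 distal 1-line loci with the highest percentiles, the 10 shared promoters with the largest shift in percentile, up to 6 members of each list, and Hras, Myc, Cdh1, Epcam, Isl1, Tcf7l2 and Cdkn2a. Predicted genes were left out, and part of these names is printed, since some items are not reported here. The persistent loci, the runs of loci, their settings, and the equal-size values of direct motif ratios, net gene counts and most gene lists were added after seeing the data. Alternatives were other overlaps, list lengths, windows, promoter widths and motif settings.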

Additional observations from a re-analysis of the deposited data

How the results depend on the processing

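No paired analysis was possible because replicates were pooled in 1 list per group, and for the same reason no replicate could be left out. Of 202 values under other settings, 129 moved by less than their counting interval or 1.5 times, 72 moved by more and 1 reversed. With lists of equal size there were 15282 Myc-only loci (176 fewer than E1A-only) and 28 Myc-only runs, and the difference within 10000 bp reversed to -3562. With the top 30000 peaks of each list there were 9498 E1A-only loci, 11 more than Myc-only. The promoter shares of E1A-only, Myc-only and shared loci were 4.02%, 13.9% and 23.7% at equal size, 4.95%, 18.8% and 21.8% for the top 30000 peaks, 6.31%, 7.9% and 24.5% without the lowest-scoring 25% of peaks, and 4.08%, 3.56% and 21.7% with promoters within 500 bp, and the Myc-only share was 4.64% with a tolerance of 500 bp. AP-1 ratios for E1A-only and Myc-only loci were 0.665 and 0.908 in the central 100 bp and 0.912 and 1.2 without GC matching, and the Myc-only ratio was 0.877 at equal size and 0.952 without promoters. Without GC matching, the ratios were 1.53 and 1.09 for TEAD, 1.47 and 0.989 for RUNX and 1.21 and 1.7 for GATA, and for E1A-only loci 1.61 for FOX, 1.25 for REST and 1.36 for IRF. At equal size the CTCF ratio was 0.384 for Myc-only and 0.386 for E1A-only loci. With all lists cut to the shortest, E1A-only loci were open in Hras.E1A with PD, Hras.E1A with TSA, Hdac7SA.Mef2d, Hras.Myc with PD and Hras.Myc with TSA at 44.3%, 48.3%, 44.9%, 27% and 25.3%, and Myc-only loci at 39.9%, 44.7%, 12.1%, 44.7% and 58.9%, and 1154 Hras.E1A and 474 Hras.Myc loci were persistent. For all genes the E1A-only and Myc-only shares were 10.8% and 4.66% within 5000 bp, 18.9% and 7.66% within 50000 bp, 8.5% and 21.0% at equal size and 21.0% and 9.93% without promoters. Myc-only shares of collagen and E2F target loci were 0% within 5000 bp. At equal size the shares were 9.21% and 22.4% for interferon, 8.62% and 29.3% for collagen, 11.5% and 33.1% for fibroblast factor and 8.64% and 44.4% for Hox loci, and without promoters the E1A-only shares were 27.8% for fibroblast factor and 29.8% for Hox loci. On chromosomes 1, 19 and X the equal-size shares were 21.3% and 17.3%, 13.53% and 20.4%, and 21.3% and 15.3%. The cause of these shifts was not tested, apart from the shorter Hras.E1A list at equal size.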
